A study of Homo sapiens with 3 samples.

Results

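The genes described here are 10 components of interleukin-6 (IL-6) family signaling, IL6R, IL6ST, OSMR, LIFR, JAK1, JAK2, STAT3, SOCS3, PIM1 and PIAS3, found by symbol among the 58037 genes of the A375 count table. All 10 were present, each on 1 row, and all 10 passed the filter on low counts, a mean normalised count of at least 20 over the libraries, which 14413 genes passed. A375 is an established human melanoma cell line. Cells were kept for 24 h by the study's methods (the labels give a range that starts at this time) in serum-free DMEM that no adipocyte had conditioned (control), or in serum-free DMEM conditioned by adipocytes from young donors (YA) or from old donors (OA), and poly(A) RNA was sequenced from 1 library per group. The adipocytes had been differentiated in culture from subcutaneous preadipocytes, with insulin and dexamethasone among the additives, and how many donors stood behind each secretome used for sequencing was not given in the sources used here. No difference below has a replicate check.

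Cytokines of the IL-6 family share the signal transducer gp130, encoded by IL6ST. Each cytokine joins gp130 to a receptor of its own, IL6R for IL-6, LIFR for leukemia inhibitory factor and OSMR for oncostatin M. Receptor-bound JAK kinases then phosphorylate STAT3, which enters the nucleus and switches on genes that include its own inhibitor SOCS3. In melanoma cells the pathway is known for its part in survival, invasion and inflammatory cytokine production. The study asked whether ceramides from the aged surroundings act on melanoma spread through sphingosine-1-phosphate, STAT3 and IL-6, and these libraries hold the response to whole secretomes.

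The member with the widest difference was LIFR, and the member higher after both secretomes was PIAS3, so the sequence before their annotated starts is shown. All 10 members matched RefSeq windows of 300 bases (250 before and 50 after a start, GRCh38.p14), 18 windows in all. LIFR (ENSG00000113594.9; chromosome 5, 38474963 to 38608354, minus strand) has in RefSeq 3 annotated starts, and the stretches before them lie inside the span of the gene and outside its exons in GENCODE release 29. The letters TTCNNNGAA, which read the same on both strands and form the core of sites that STAT proteins can bind, are in capitals. They occurred in 2 of the 18 windows of the members, both of LIFR, in 2689 of 35116 windows of all genes (7.66%) and in 1 of 10 members against 9.38% of all genes. A match is a description of letters and not a measured binding site.
LIFR, chr5:38595406-38595655: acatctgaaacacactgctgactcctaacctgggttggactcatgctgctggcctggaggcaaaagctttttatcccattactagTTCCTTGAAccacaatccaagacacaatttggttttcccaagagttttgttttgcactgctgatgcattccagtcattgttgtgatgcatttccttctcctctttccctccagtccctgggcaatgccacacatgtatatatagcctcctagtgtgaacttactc
LIFR, chr5:38557468-38557717: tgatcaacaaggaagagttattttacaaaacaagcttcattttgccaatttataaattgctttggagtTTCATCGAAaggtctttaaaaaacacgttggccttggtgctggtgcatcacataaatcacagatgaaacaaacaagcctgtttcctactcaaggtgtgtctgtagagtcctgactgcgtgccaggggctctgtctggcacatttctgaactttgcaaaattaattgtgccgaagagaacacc
LIFR, chr5:38556647-38556896: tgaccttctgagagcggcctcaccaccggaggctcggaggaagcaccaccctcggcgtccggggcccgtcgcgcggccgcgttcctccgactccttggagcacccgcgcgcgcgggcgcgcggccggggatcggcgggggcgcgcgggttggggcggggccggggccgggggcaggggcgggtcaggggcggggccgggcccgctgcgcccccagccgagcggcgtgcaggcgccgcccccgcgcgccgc
PIAS3, chr1:145859082-145859331: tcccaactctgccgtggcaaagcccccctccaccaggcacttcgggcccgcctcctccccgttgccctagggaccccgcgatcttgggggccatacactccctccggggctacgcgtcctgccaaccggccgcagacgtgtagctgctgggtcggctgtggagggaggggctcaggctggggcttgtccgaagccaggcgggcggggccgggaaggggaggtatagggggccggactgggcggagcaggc

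The first LIFR stretch holds the match 165 bases before its start and no CpG in 250 bases. The second holds it 182 bases before its start, with 4 CpGs. The third, which lacks it, is 83.6% G and C with 44 CpGs. Gene-level counts do not tell which of the 3 starts was used. The PIAS3 stretch, also minus strand and inside the gene (145848522 to 145859836), is 72% G and C and lacks the letters.

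The libraries held 21448195 (control), 21306558 (YA) and 18089008 (OA) counts. The labelled cell type was checked against 12 melanoma lineage markers. MITF, the melanocyte master regulator, had 1221, 764 and 881 counts in control, YA and OA, S100B had 843, 591 and 550, and NGFR had 3060, 2774 and 1289. AXL had 9837, 8832 and 10449, at 1.27-fold of control after OA (1.23 to 1.30). PAX3 had 466, 495 and 324, and S100A1 had 19, 30 and 15. Of the 12, the other 6 did not pass the filter. SOX10 was at 0 in the 3 libraries, TYR at 2, 0 and 0, DCT at 2, 1 and 2, TYRP1 at 6, 3 and 3, PMEL at 2, 10 and 10, and MLANA at 22, 18 and 16, so the markers of pigment cells were absent or low while MITF, S100B and NGFR were present.

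Positions are those of GENCODE release 29 on GRCh38. Levels were compared between genes as normalised counts per kilobase of exon. In control, IL6ST was the highest member at 576 per kb (95% Poisson interval 561 to 591), followed by STAT3 at 433 and JAK1 at 423, whose intervals overlapped. OSMR followed at 311, SOCS3 at 229, PIAS3 at 186 and PIM1 at 147, each apart from the next. LIFR at 69.7 and IL6R at 69.5 did not differ beyond counting error, and JAK2 was lowest at 48.1 (42.9 to 53.7). IL6R stood at 0.121 of IL6ST per kb (0.110 to 0.133).

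**Figure D1:**
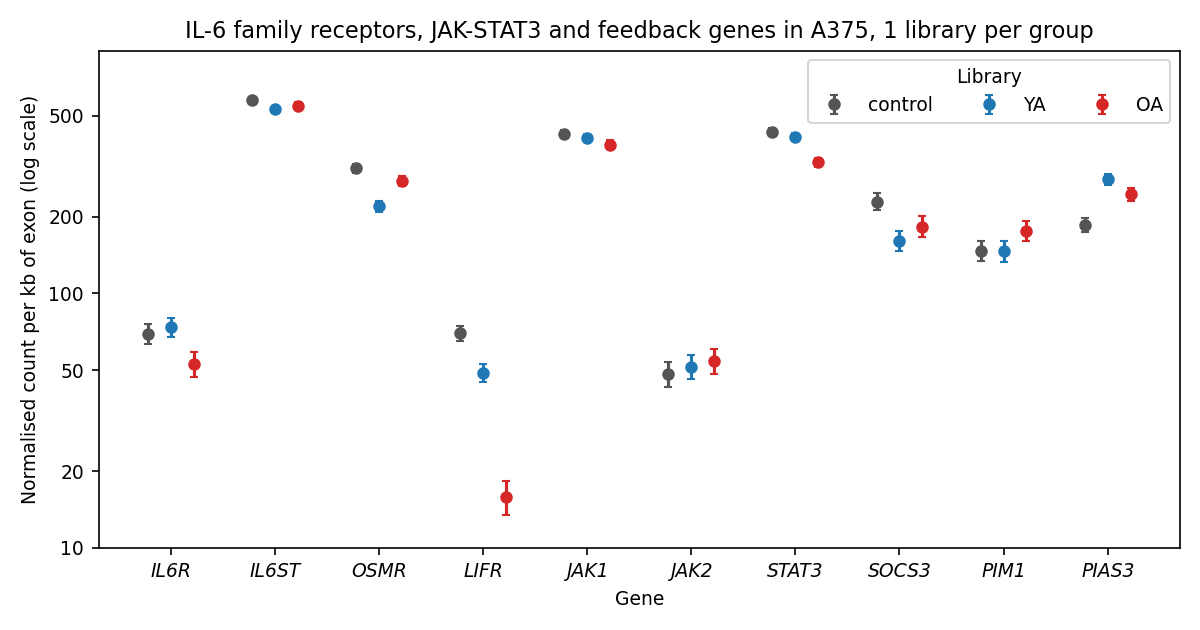
Normalised counts per kilobase of exon (log axis) for the 10 genes in the control, YA and OA libraries, 1 point per library with its 95% Poisson interval. LIFR lies at 69.7 in control and 15.8 after OA, while IL6ST stays between 530 and 576.

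After OA, IL6ST was again the highest. JAK1 (385 per kb) was above STAT3 (328), without overlap of their intervals, and LIFR was the lowest member at 15.8 (13.5 to 18.4), below JAK2 at 54.2 and IL6R at 52.7, which overlapped. After YA, PIAS3 (281 per kb) was above OSMR (220), and JAK2 (51.3) and LIFR (48.7) overlapped at the bottom.

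Fold values below are ratios of normalised counts, each given with the 95% Clopper-Pearson interval that the counts of both libraries allow, which covers counting error only. A gene was called higher or lower when it passed 1.2-fold. The study's methods name a cutoff of 1.2 without its scale, and it was read as a linear fold. The comparisons of YA and OA with control share the control library. After YA against control, 1 of the 10 members was higher (background 17.4% of all genes tested) and 3 were lower (background 16.4%). After OA against control, 1 was higher (background 21.1%) and 4 were lower (background 21.5%). Between the secretomes, 3 members were higher after YA than after OA (background 23%) and 2 were lower (background 21.5%). With 10 members, counts of 1 to 4 rest on few genes, and the members were not tested against the background. By a stricter rule, the counting interval wholly beyond 1.2-fold, PIAS3 was the 1 member higher after YA (background 6.03%) and OSMR, LIFR and SOCS3 the 3 lower (background 4.44%). By the same rule 1 was higher (PIAS3, background 9.04%) and 2 lower (LIFR and STAT3, background 9.08%) after OA, and 3 were higher (LIFR, IL6R and STAT3, background 10%) and 0 lower (background 9.03%) after YA than after OA. At 2-fold, 0 members were higher (background 2.15%) or lower (background 0.971%) after YA. LIFR was the 1 member lower after OA (background 3.71%, and 0 higher against 2.86%) and the 1 higher after YA than after OA (background 4.43%, and 0 lower against 3.04%). The median log2 fold change of the members was -0.06 after YA and -0.15 after OA against control, beside -0.02 and 0.01 over all genes tested.

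**Figure D2:**
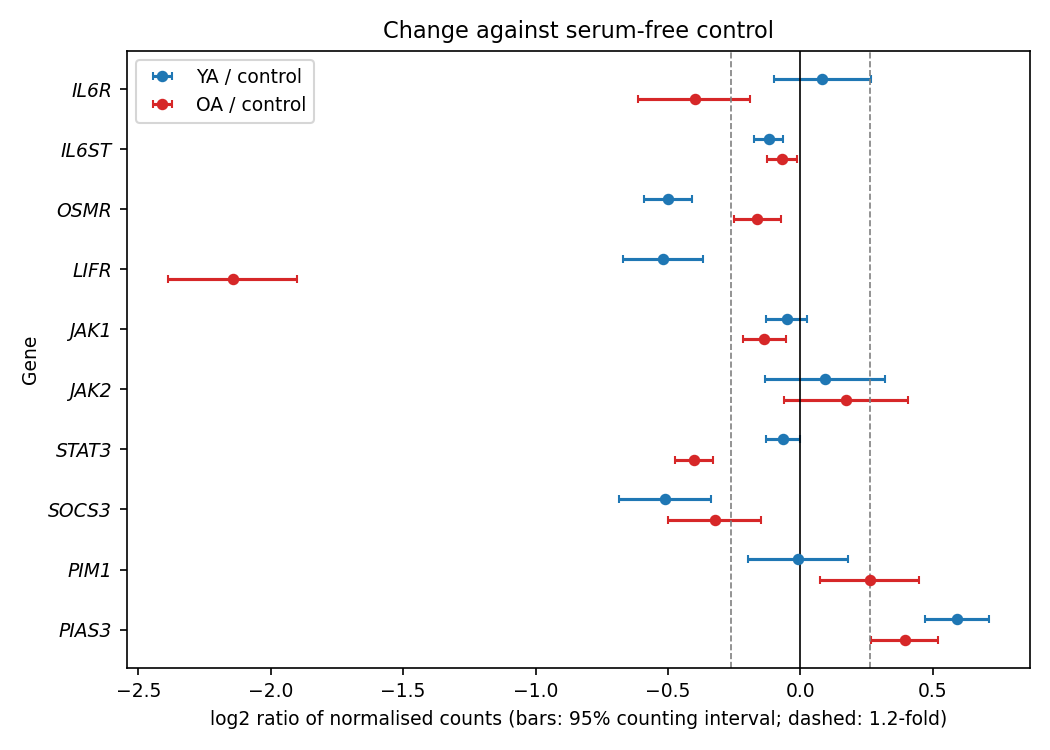
Log2 ratio of normalised counts after YA (blue) and OA (red) against control for each gene, with 95% counting intervals and dashed lines at 1.2-fold. LIFR after OA lies near -2.14, and PIAS3 is the gene to the right of the line in both comparisons.

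The receptors were described first. LIFR, the receptor chain for leukemia inhibitory factor and a partner for oncostatin M, had 878 counts with control medium, 611 with YA and 167 with OA. It was lower after both secretomes and lowest after OA. The ratio to control was 0.698 after YA (interval 0.628 to 0.775) and 0.227 after OA (0.191 to 0.268), and YA was 3.08-fold of OA (2.59 to 3.68). Of the 14413 genes tested, 104 (0.722%) had a log2 fold change after OA at or below that of LIFR. In bulk RNA, fewer cells that carry a transcript and less of it per cell cannot be told apart. LIFR-AS1, an antisense transcript whose exons overlap those of LIFR, had 35, 22 and 9 counts, a ratio of 0.306 after OA (0.130 to 0.650). Its counts are small beside those of LIFR, and whether strand was used in counting was not stated.

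OSMR (ENSG00000145623.12; chromosome 5, 38845858 to 38945596, plus strand), the oncostatin M receptor chain, had 2365, 1669 and 1774 counts in control, YA and OA. Its level was lower after YA, at 0.708 of control (0.664 to 0.754), and after OA its ratio was 0.894 (0.840 to 0.951), short of 1.2-fold. RICTOR, whose exons overlap OSMR on the opposite strand, had 1579, 1622 and 1381 counts, a ratio of 1.03 after YA.

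IL6R (ENSG00000160712.12; chromosome 1, 154405193 to 154469450, plus strand), the ligand-binding chain for IL-6, had 476, 503 and 303 counts. It was near control after YA, at 1.06-fold (0.933 to 1.204), and lower after OA, at 0.758 of control (0.654 to 0.878). Between the secretomes it was 1.40-fold higher after YA (1.21 to 1.62). IL6ST (ENSG00000134352.19; chromosome 5, 55935095 to 55994993, minus strand) had 5675, 5211 and 4538 counts, with ratios of 0.921 after YA (0.887 to 0.956) and 0.953 after OA (0.916 to 0.991). Both intervals lay below 1 and inside 1.2-fold.

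Ratios of 2 genes within a library do not depend on scaling between libraries. OSMR had 2.69 counts per LIFR count in control (2.49 to 2.91), 2.73 after YA (2.49 to 3.00) and 10.6 after OA (9.06 to 12.5). The ratio after OA was 3.94 times that in control (3.31 to 4.71), while YA was at 1.01 times (0.899 to 1.14). Of all counts of the 4 receptor genes, the control library had 9.35% from LIFR (8.77 to 9.95, 95% Wilson), 7.64% after YA (7.08 to 8.25) and 2.46% after OA (2.12 to 2.86). IL6ST took 60.4%, 65.2% and 66.9% in that order. OSMR took 25.2% in control, 20.9% after YA and 26.2% after OA.

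Among the kinases, JAK1 (ENSG00000162434.11; chromosome 1, 64833229 to 64966504, minus strand), which binds gp130 and is needed for its signal, had 2834, 2727 and 2164 counts in control, YA and OA. Its ratios of 0.965 after YA (0.915 to 1.02) and 0.910 after OA (0.860 to 0.962) did not pass 1.2-fold. Its exons overlap RAVER2 on the opposite strand, which had 896, 821 and 563 counts. JAK2 (ENSG00000096968.13; chromosome 9, 4984390 to 5128183, plus strand) had 315, 335 and 298 counts, with ratios of 1.07 (0.912 to 1.25) and 1.13 (0.959 to 1.32), and no difference was detectable at this depth. Between the secretomes the JAK2 ratio of YA to OA was 0.947 (0.807 to 1.11). Of the counts of the 4 JAK genes, JAK1 took 50.9% in control, 44.2% after YA and 44.6% after OA.

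STAT3 (ENSG00000168610.14; chromosome 17, 42313324 to 42388568, minus strand), the transcription factor of the pathway, had 4047, 3855 and 2572 counts. After YA it was close to control, at 0.955 (0.914 to 0.999). After OA it was lower, at 0.757 (0.720 to 0.796), with an interval wholly beyond 1.2-fold. STAT3 took 34.2% of the counts of the 7 STAT genes in control (33.3 to 35.02), 33.3% after YA (32.4 to 34.1) and 26.5% after OA (25.6 to 27.4). These are mRNA levels, and the phosphorylated protein was not measured here. The study blotted phosphorylated and total STAT3 separately, in A375 among other cells, after ceramide and after both secretomes.

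SOCS3, PIM1 and PIAS3 differed in direction. SOCS3 (ENSG00000184557.4; chromosome 17, 78356778 to 78360077, minus strand), which binds gp130 and JAKs and shuts the signal off, had 665 counts in control, 465 after YA and 446 after OA. It was highest in control, with ratios of 0.701 after YA (0.622 to 0.791) and 0.799 after OA (0.707 to 0.902). PIM1 (ENSG00000137193.13; chromosome 6, 37170203 to 37175426, plus strand), a serine/threonine kinase gene that STAT3 and STAT5 induce, had 465, 461 and 468 counts. Its ratio was 0.994 after YA (0.872 to 1.13) and 1.199 after OA (1.05 to 1.37), just short of the cutoff, and YA was at 0.829 of OA (0.728 to 0.945). PIAS3 (ENSG00000131788.15; chromosome 1, 145848522 to 145859836, minus strand), which binds activated STAT3 and blocks its contact with DNA, had 951, 1429 and 1049 counts.

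PIAS3 was higher in both, at 1.51-fold of control after YA (1.39 to 1.64) and 1.31-fold after OA (1.202 to 1.44). Its exons overlap NUDT17 on the opposite strand, which was also higher, with 143, 226 and 176 counts, 1.59-fold after YA (1.28 to 1.97) and 1.47-fold after OA (1.17 to 1.84). The part of NUDT17 reads in the PIAS3 value was not tested.

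Relative to STAT3 in the same library, PIAS3 had 0.235 counts per STAT3 count in control (0.219 to 0.252), 0.371 after YA (0.349 to 0.394) and 0.408 after OA (0.379 to 0.438). PIM1 stood at 0.115 in control, 0.120 after YA and 0.182 after OA, where the ratio was 1.58 times that in control (1.38 to 1.82). STAT3 was itself lower after OA, at 0.757 of control, so each ratio to it after OA also carries that change. By itself PIM1 was at 1.199 of control after OA, and PIAS3 was at 1.51 after YA and 1.31 after OA. SOCS3 stood at 0.164 in control (0.151 to 0.178), 0.121 after YA (0.109 to 0.133) and 0.173 after OA (0.157 to 0.192). Against STAT3, SOCS3 was thus lower after YA, at 0.734 times the ratio in control (0.647 to 0.833), and after OA no difference was detectable, at 1.06 times (0.927 to 1.201).

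**Figure D3:**
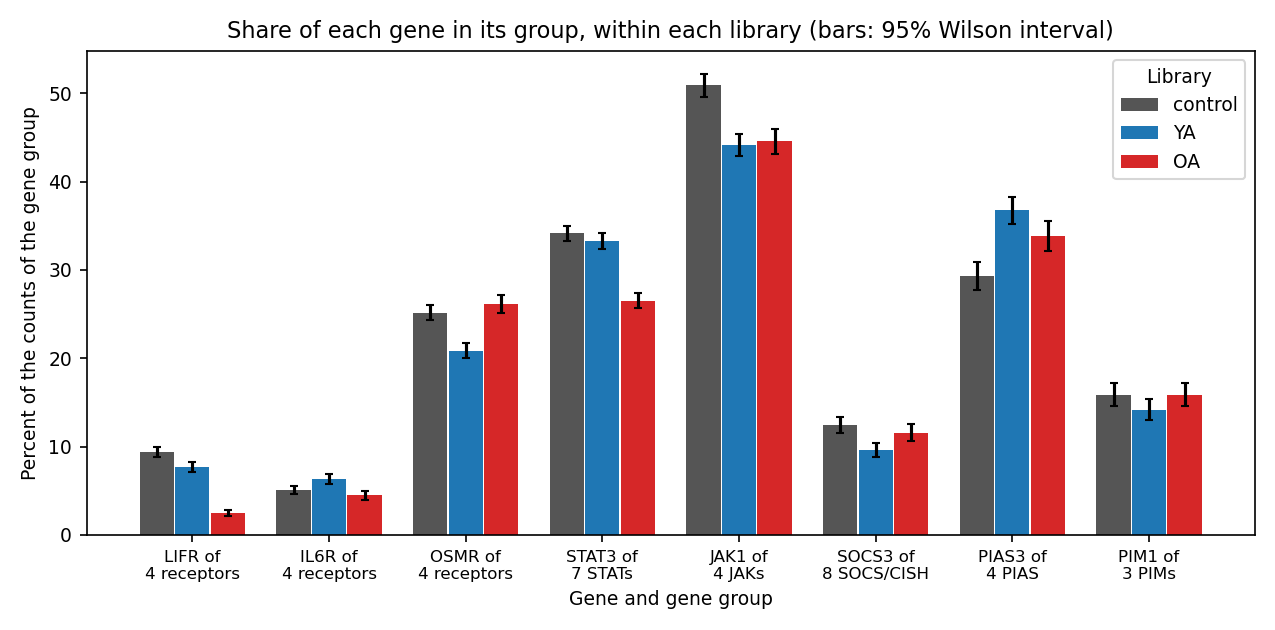
Percent of the counts of a gene group taken by 1 gene in each library, with 95% Wilson intervals: LIFR, IL6R and OSMR among 4 receptors, STAT3 among 7 STATs, JAK1 among 4 JAKs, SOCS3 among 8 SOCS and CISH genes, PIAS3 among 4 PIAS and PIM1 among 3 PIM genes. LIFR stands at 2.46% and STAT3 at 26.5% after OA, and PIAS3 at 36.7% after YA.

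The ligands of these receptors were listed next. Of 11 ligand genes, 7 passed the filter. After OA, 5 of the 7 were higher (background 21.1%) and 1 was lower (21.5%), with a median log2 fold change of 0.99. After YA, 3 were higher (background 17.4%) and 1 lower (16.4%), with a median of 0.17. With the interval wholly beyond 1.2-fold, 5 were higher and 0 lower after OA, and 0 were higher and 1 lower after YA. IL6 is among the 5 in both counts after OA. It is also among the 3 higher after YA, where its interval included 1. It passed the filter only through the OA library. Its normalised counts were 4.71, 9.45 and 73.0 in control, YA and OA, so its call after OA is not independent of the filter. The list, like those below, was written with earlier results of these data known. The same backgrounds apply to the lists below. IL6, the cytokine that the study followed, had 5, 10 and 65 counts in control, YA and OA, 2.01-fold of control after YA (0.625 to 7.48) and 15.5-fold after OA (6.31 to 49.3). With so few counts the size after OA depended on the pseudocount, with a log2 fold change of 3.69 at a pseudocount of 1 and 3.00 at 5. IL11, which signals through IL11RA and gp130, had 341, 170 and 569 counts. It was the ligand that was lower after YA, at 0.50 of control (0.413 to 0.603), and it was 1.99-fold higher after OA (1.74 to 2.28).

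LIF, the ligand of LIFR, had 1283, 1589 and 3067 counts. It was 1.24-fold of control after YA (1.15 to 1.34) and 2.85-fold after OA (2.67 to 3.04). It took 70.03% of the counts of 7 gp130 ligands in control, 79.8% after YA and 77.1% after OA. CLCF1 was 1.78-fold higher after OA (1.46 to 2.17), with 171, 192 and 255 counts. EBI3, a subunit of the cytokine IL-27, was 2.25-fold higher after OA (1.80 to 2.84), with 119, 171 and 225 counts. OSM, the ligand of OSMR, had 0 counts in each library, as had IL27 and IL31, and a count of 0 allows up to 3 counts.

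**Figure D4:**
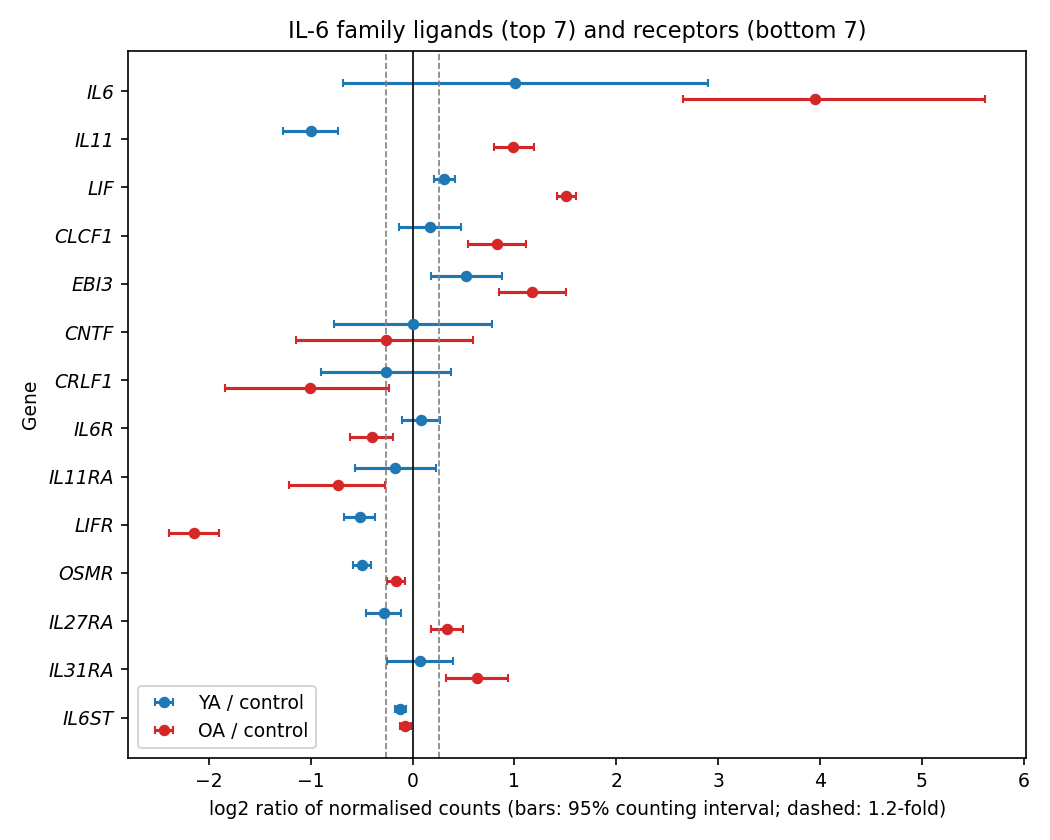
Log2 ratio of normalised counts after YA (blue) and OA (red) against control for the 7 ligand genes that passed the filter and 7 receptor genes, with 95% counting intervals and dashed lines at 1.2-fold. After OA, LIF lies at 2.85-fold and LIFR at 0.227-fold of control.

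After OA the receptor genes of IL-6, IL-11 and LIF were each below control while the ligand was above it. The IL6 value is not independent of the filter, and the interval of IL6R did not lie wholly beyond 1.2-fold. Not every pair was opposed. EBI3, an IL-27 subunit, and IL27RA were both above control after OA, at 2.25-fold and 1.26-fold. Whether ligand and receptor changes are linked was not tested. IL11RA had 115, 102 and 58 counts, 0.601 of control after OA (0.430 to 0.831). IL27RA had 626, 513 and 664 counts, with ratios of 0.822 after YA (0.730 to 0.925) and 1.26 after OA (1.13 to 1.41). IL31RA, which pairs with OSMR for IL-31, had 159, 167 and 207 counts, 1.55-fold higher after OA (1.26 to 1.92). CNTFR had 1, 0 and 0 counts.

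Of 7 other JAK and STAT genes tested, 1 was higher after YA and 2 were higher after OA, with none lower. TYK2, a JAK kinase that also binds gp130, had 2382, 3070 and 2368 counts, 1.29-fold higher after YA (1.22 to 1.36). The 2 higher after OA were STAT5A at 1.27-fold (1.15 to 1.41) and STAT6 at 1.22-fold (1.16 to 1.29). Of 11 other SOCS, PIAS and PIM genes tested, 1 was higher and 2 lower after YA, and 1 was higher and 2 lower after OA. SOCS2, a feedback inhibitor of growth hormone and STAT5 signaling, had 444, 281 and 231 counts, 0.635 of control after YA (0.545 to 0.739) and 0.620 after OA (0.526 to 0.728). PIM1's paralog PIM3 had 1934, 2258 and 2049 counts and was 1.26-fold higher after OA (1.19 to 1.34). None of the 6 phosphatase and receptor protease genes tested, which include PTPN11 and the IL6R sheddase ADAM17, passed 1.2-fold in any of the 3 comparisons.

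Genes known to be induced by STAT3 in other cells were listed to set the receptors beside their output. Of 30 listed, 25 passed the filter. After YA, 13 were higher (background 17.4%) and 4 lower (16.4%), with a median log2 fold change of 0.33 beside -0.02 over all genes. After OA, 14 were higher (background 21.1%) and 3 lower (21.5%), with a median of 0.40 beside 0.01. Between the secretomes the list did not go one way, with 8 higher (background 23%) and 9 lower (21.5%) after YA than after OA and a median of -0.15 beside -0.01. Many of these genes also answer to NF-kB, AP-1 or glucocorticoids, and the list does not single out STAT3. It was written with earlier results of these data known, so its counts beside the background are a description only. LCN2 is among the genes counted as higher, and it passed the filter through the OA library. Its normalised counts were 8.48, 27.4 and 809 in control, YA and OA.

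**Figure D5:**
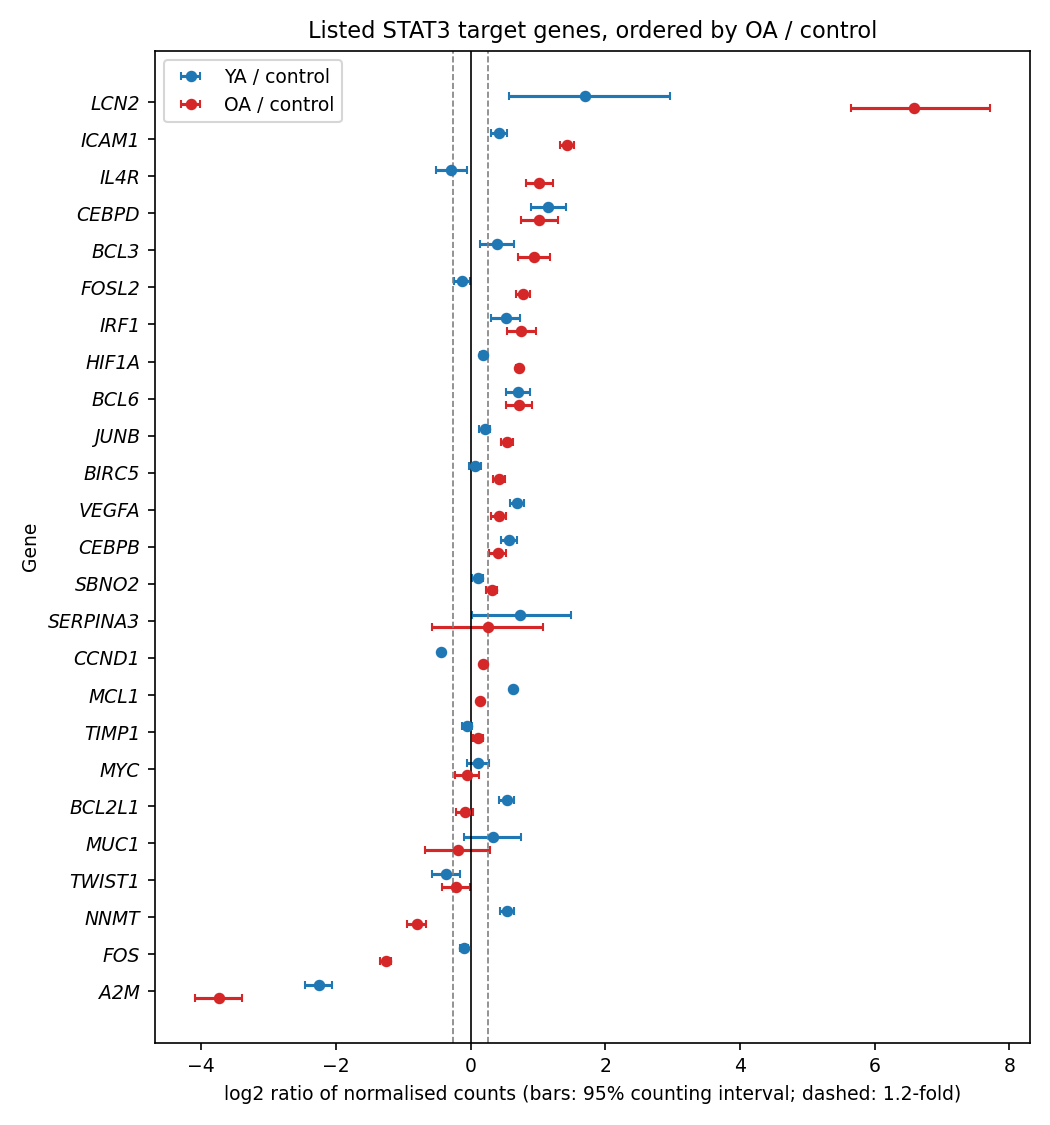
Log2 ratio of normalised counts after YA (blue) and OA (red) against control for the 25 listed STAT3 target genes that passed the filter, ordered by the value after OA, with 95% counting intervals and dashed lines at 1.2-fold. LCN2 at 95.4-fold and A2M at 0.0751-fold mark the ends after OA.

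The largest fold after OA was that of LCN2, a siderophore-binding acute-phase protein, with 9, 29 and 721 counts, 95.4-fold of control after OA (49.99 to 209.6). The adhesion molecule ICAM1 had 1038, 1389 and 2353 counts, 1.34-fold of control after YA (1.24 to 1.46) and 2.70-fold after OA (2.51 to 2.91). IL4R had 344, 282 and 586 counts, 2.03-fold higher after OA (1.77 to 2.33). Both secretomes had higher CEBPD, a transcription factor of the acute-phase response, at 2.23-fold after YA (1.86 to 2.67) and 2.03-fold after OA (1.68 to 2.45). BCL6, a transcriptional repressor, had 407, 660 and 563 counts, 1.63-fold after YA (1.44 to 1.84) and 1.65-fold after OA (1.45 to 1.88). VEGFA, the angiogenic growth factor, was 1.61-fold higher after YA (1.497 to 1.73) and 1.34-fold after OA (1.24 to 1.44), and MCL1, a survival protein of the BCL2 family, 1.54-fold higher after YA (1.51 to 1.58).

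Other listed targets went the opposite way. A2M, the protease inhibitor alpha-2-macroglobulin, had 1174, 246 and 74 counts. It was at 0.210 of control after YA (0.182 to 0.241) and 0.0751 after OA (0.0585 to 0.0950). FOS had 4735, 4411 and 1665 counts, 0.419 of control after OA (0.396 to 0.443). NNMT, a nicotinamide methyltransferase, had 1279, 1858 and 617 counts, so it was 1.46-fold higher after YA (1.36 to 1.57) and at 0.575 of control after OA (0.521 to 0.633).

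Of 18 listed targets with a RefSeq window, 4 held TTCNNNGAA, beside 9.38% of all genes with a window. The 4 were BCL6 with 4 matches in 1 window, ICAM1 with 1, IRF1 and HAMP. They are few genes of a list written with earlier results known, and their share was not tested against that of all genes. IRF1, an interferon-response transcription factor, was 1.44-fold of control after YA (1.24 to 1.67) and 1.69-fold after OA (1.46 to 1.9596), and HAMP did not pass the filter. Targets without the letters were also higher, LCN2 among them. The first BCL6 match, 28 bases before that start (chromosome 3, 187745478 to 187745506, minus strand), and the ICAM1 match, 75 bases before its start (chromosome 19, 10271035 to 10271063, plus strand), are shown with 10 bases on each side and the match in capitals. Both stretches lie in exons of the gene in GENCODE release 29. They are shown as examples of the letters, and IRF1 and both examples were chosen after their values were seen.
BCL6: gaagctcaaaTTCCGAGAAttgagctctg
ICAM1: ggcgcgaggtTTCCGGGAAagcagcaccg

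Markers of other cells that conditioned medium could carry were read beside these values. Among 10 adipocyte markers, ADIPOQ had 1, 0 and 0 counts, LEP had 0 in each library and PLIN1 had 2, 5 and 2. Other markers of the list were present, and not all of them were higher after OA. CIDEC, a lipid droplet protein, had 6, 31 and 36 counts, 5.18-fold of control after YA (2.13 to 15.2) and 7.15-fold after OA (2.98 to 20.8). PLIN4, another lipid droplet protein, had 284, 579 and 321 counts, and PPARG, the adipogenic transcription factor, had 1608, 1964 and 1530. After OA, PPARG was at 1.13-fold of control, short of 1.2-fold. The summed normalised count of the list was 2214 in control, 3149 after YA and 2232 after OA, with 5 of the 10 genes tested, all 5 higher after YA, and 2 higher and 1 lower after OA. LPL, a member of that list, had 353, 583 and 30 counts. FABP4, another member, did not pass the filter and had 16, 15 and 2 counts, 0.149 of control after OA (0.017 to 0.633). The fibroblast list summed to 715, 905 and 660, with COL1A2 at 1, 1 and 2 counts and COL3A1 at 0, 1 and 1. DCN had 13, 138 and 24, which is 10.6-fold of control after YA (6.02 to 20.5), and it passed the filter through the YA library. PDGFRA had 76, 20 and 51, which is 0.264 of control after YA (0.153 to 0.437). Of the 5 fibroblast genes tested, 3 were higher and 1 lower after YA, and 2 were higher and 2 lower after OA. POSTN, which did not pass the filter, had 6, 10 and 27 counts. The leukocyte list summed to 164, 167 and 118, most of it from LYZ, the 1 gene of the list that passed the filter, with 148, 143 and 86 counts. PTPRC was at 0, 1 and 0. The part of these lists in the values of the 10 genes was not tested.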

How the data were processed

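Poly(A) RNA libraries of A375 (SureSelect, Agilent) were sequenced on a NovaSeq. The submitters' processing notes list STAR 2.5.1b, featureCounts, R 3.6.1 and hg38, with no role or order. The authors deposited raw counts per gene, and annotation release and use of strand were not given in the sources used here. Groups came from the treatment labels, with 1 library each.

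Counts were divided by DESeq2 1.42.0 size factors (1.06, 1.06 and 0.891 for control, YA and OA; R 4.3.3). Calls used (a + 1)/(b + 1) of normalised counts over 14413 genes with a mean of at least 20. Printed folds are plain ratios with 95% Clopper-Pearson intervals, and shares carry Wilson intervals. Only counting error enters these intervals and the floor of 3 counts, since reads carry no molecular identifiers. With 1 library per group no p-value was computed.

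Exon lengths and positions came from GENCODE release 29 (57433 of 58037 identifiers matched without version). Of 2 rows named SERPINA3, ENSG00000196136.16 was used. The members and gene lists were chosen with earlier results of these data known. Named genes are all 10 members, IL6 and, per pathway list and comparison, up to 6 genes whose interval lay wholly beyond 1.2-fold, by size. TYK2 and SOCS2 follow that rule, overlapping genes were named by position, and STAT5A, STAT6, PIM3, OSM, IL27, IL31, CNTFR, PTPN11, ADAM17 and the marker genes printed were chosen after their values were seen. Steps were tested on simulated data. As alternatives, TMM scaling (edgeR 4.0.16), scaling to total counts, a pseudocount of 5, other filters and other thresholds were run. Other software was matplotlib 3.10.9, scipy 1.17.1, pandas 2.3.3, numpy 2.4.6 and Python 3.11.15.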

Additional observations from a re-analysis of the deposited data

How the results depend on the processing

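The counts of members past 1.2-fold did not change with no filter, with a minimum mean of 100 or with a pseudocount of 5. Under TMM scaling and under total-count scaling, 1 member rather than 2 was lower in YA than in OA, since PIM1 lay at the cutoff. The other 5 counts did not change under these scalings. With the counting interval wholly beyond 1.2-fold, 2 members were lower in OA than in control (LIFR and STAT3) and 0 were lower in YA than in OA. At 2-fold and at a log2 fold change of 1.2, which are stricter by construction, LIFR alone passed, as 1 member lower in OA than in control and 1 higher in YA than in OA, and the other 4 counts were 0. The log2 fold changes of the named genes stayed inside their counting intervals under both scalings and the pseudocount of 5, that of LIFR in OA between -2.15 and -2.11. That of IL6 in OA moved by over 1.5 times in fold, from 3.69 to 3.00 with the pseudocount of 5. No paired analysis was possible because each group has 1 library. Precision is limited by depth for JAK2, IL6 and LIFR-AS1, and the spread between cultures is unknown.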

Other observations

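The genes whose changes lay nearest to those of LIFR were looked up in the plane of the log2 fold changes in YA and OA against control, among 11152 genes that are not members and average 100 or more normalised counts. The likeness rests on 3 libraries and is a description. GSN, which encodes the actin-severing protein gelsolin, had 349, 243 and 63 counts in control, YA and OA and lay 0.066 from LIFR on the log2 scale. PCSK1, a prohormone convertase, had 539, 382 and 109 counts (distance 0.095). SPRY4, a feedback inhibitor of receptor tyrosine kinase signaling, had 7526, 5431 and 1544 counts (distance 0.116). Of the 11152 genes, 2 lay within 0.1 of LIFR, 251 within 0.1 of STAT3 and 134 within 0.1 of IL6R. Few genes change as much as LIFR (0.722% of those tested at or below it after OA). Its few neighbours follow from the size of its change and are not a separate result. The nearest genes to STAT3 were MOK, SMARCAD1 and SEPT6, and those to IL6R were ANKRD49, RN7SL2 and CUX1.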
